A study of Danio rerio with 24 samples.

Results

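The epidermal barrier genes of the zebrafish caudal fin were followed through regrowth after amputation in larvae and adults. They were taken as every probe set whose single annotated gene symbol begins as a keratin, envelope plakin, ictacalcin, desmosome, claudin, occludin or tight junction scaffold gene does, together with tp63, epcam and cdh1. The rule found 76 probe sets of 58 genes, among 15502 probe sets tested and 8793 distinct genes with 1 symbol. They divided into 18 keratin probe sets, 7 of envelope plakins and ictacalcins, 9 of desmosome genes, 36 of tight junction genes and 5 of adhesion and basal fate genes. The last probe set was krtcap2, whose symbol begins like a keratin's but whose product is a subunit of the oligosaccharyltransferase. It was counted apart. Another 2 probe sets matched only as 1 of several symbols and were left out.

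Total RNA from fins of the AB strain was hybridised to 24 Affymetrix zebrafish arrays, 3 in each of 8 groups. Larval fins were cut at 2 days post fertilization, and the groups were unamputated fin of that age and fin collected 1, 2 or 3 days later (days post amputation, dpa), with 150 fins pooled for each array. Larvae at 2 and 3 dpa had been exposed for a short time to the vehicle DMSO in the water, and no vehicle was stated for the unamputated and 1 dpa larvae. Unamputated larvae older than 2 days were not analysed here, so larval age rose with the day of collection. Adult fins came from males, 10 pooled for each array, and were unamputated or taken at 1, 3 and 5 dpa. The adults with regenerating fins had been injected with phosphatidylcholine liposomes as a vehicle, and none was stated for unamputated adults. Amputation and vehicle therefore cannot be told apart in adults, nor amputation and age in larvae at 1 dpa. In larvae at 2 and 3 dpa amputation, vehicle and age cannot be told apart. Larval RNA (100 ng) went through a kit with a second round of amplification and adult RNA (2.5 µg) through a single-round kit, so age, kit and input cannot be told apart. The labels disagree about the collection days of unamputated adult fin and the replicate numbers of some larval arrays, and titles were followed. Titles of the larval 2 and 3 dpa and adult regenerating arrays name an adult and larval fin study, and the other titles do not. Whether the arrays so named were handled apart from the others is not stated, and its part in the values was not tested. Nothing in the labels says that the pools came from separate clutches or days, so p-values measure the spread between these pools.

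Fish epidermis is a layered, living epithelium, with a superficial layer, intermediate cells and a basal layer that rests on the basement membrane. Keratins pair as type I and type II chains into intermediate filaments, which desmosomes anchor from cell to cell. Envoplakin and periplakin tie keratin filaments to the cell cortex: in mammals they build the cornified envelope, and in zebrafish they shape the microridges of the superficial layer. Claudins and occludins form the paracellular seal of the tight junction, and scaffold proteins of the tjp family tether it to actin. The transcription factor tp63 specifies basal keratinocytes. After a fin is cut, the surrounding epidermis slides over the stump and thickens into the wound epidermis under which new tissue grows.

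The deposited values are ratios to a reference that is particular to the probe set, so a ratio can be compared between arrays but not between genes, and the presence of a labelled tissue cannot be read from a level. A probe set was called at a limma adjusted p (Benjamini-Hochberg over all 15502) under 0.05 with a change of at least 2-fold, 1 on the log2 scale. Rose and fell are used below only for called probe sets, and errors of log2 changes are standard errors of the model. Replicates correlated across probe sets with r of 0.793 to 0.939, except the larval 3 dpa arrays (0.629 to 0.808), of which replicate 3 stood apart. Adult unamputated replicate 3 also read far below the rest of its group for some members, among them 1 probe set each of krt1-19e, dsc2l and perp. The median of all probe sets was -0.17, -0.18 and -0.17 in adult fin at 1, 3 and 5 dpa, against -0.03, -0.02 and 0.00 in larval fin at 1, 2 and 3 dpa. The mean log2 ratio of 9 hybridisation control probe sets was -0.94 on the 9 regenerating adult arrays and 0.52 on the 3 unamputated ones, without overlap. Larval fin at 2 and 3 dpa, when 6.32% and 5.51% of all probe sets fell, also differed from the unamputated fin in other tissues. Of 20 skeletal muscle probe sets 18 fell on both days, and their mean log2 ratio ran from 3.38 to 5.79 on the unamputated arrays, -0.10 to 0.47 at 2 dpa and -0.19 to 0.02 at 3 dpa. Of 10 probe sets of notochord and cartilage 7 fell on both days, and so did 7 of 9 of erythrocytes. The endothelial receptor gene kdrl, the 1 measured gene of 6 on an endothelial list, fell by 3.3 ± 0.28 and 3.54 ± 0.28. Of 10 probe sets of neurons and glia 2 fell on both days, those of elavl3 and stmn1b. Of 9 probe sets of blastema and dermal fibroblasts 2 of col1a2 fell (-2.14 to -1.84) and 1 of junba rose (3.42 and 2.99). In adult fin 8 of these 9 rose at 3 and 5 dpa, when 8.10% and 7.01% of all probe sets did, with a mean log2 ratio of -2.38 to -2.04 on the unamputated arrays, -0.37 to 0.09 at 3 dpa and 0.10 to 0.30 at 5 dpa. Of 16 leukocyte probe sets 6, 4 and 2 rose in larvae (2.43%, 6.23% and 5.08% of all probe sets) and 5, 3 and 4 in adults (8.68%, 8.10% and 7.01%) on the days in order, while 1 fell on each larval day and 0 in adults. At larval 2 and 3 dpa the lysozyme gene lyz was the 1 that fell, with changes of -3.51 ± 0.70 and -4.23 ± 0.70, larger than any leukocyte rise on these days. In whole-fin RNA, fewer cells of a type and less RNA per cell cannot be told apart, and the part of these other tissues in the values below was not tested.

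In larval fin the members called lower outnumbered those called higher at each day. At 1 dpa 3 of 76 rose and 5 fell, where 2.43% of all probe sets rose, 1.58% fell and 4.01% were called in all. At 2 dpa the members called were 5 higher and 15 lower (6.23% and 6.32% of all probe sets, 12.5% together), and at 3 dpa they were 3 higher and 14 lower (5.08% and 5.51%, 10.6% together). The median over the members was -0.20, -0.18 and -0.18 on the log2 scale on these days. The 1 dpa count of 8 was 5 without larval unamputated replicate 1 or 3 or without 1 dpa replicate 2. The 2 dpa count was 12 or 13 without any of the 3 unamputated arrays or without 2 dpa replicate 3. At 3 dpa the 17 calls became 20 without replicate 3, and 15 of the 17 remained. With a pseudocount of 0.25, which shrinks changes of low ratios, the 20 calls at 2 dpa became 6, all lower, so none of the 5 rises of that day remained called.

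In adult fin fewer members were called lower at 5 dpa than at 1 dpa. At 1 dpa the calls were 6 higher and 11 lower (8.68% and 7.40% of all probe sets, 16.1% together), at 3 dpa 5 higher and 8 lower (8.10% and 6.19%, 14.3% together), and at 5 dpa 6 higher and 1 lower (7.01% and 4.46%, 11.5% together). The scale of the adult arrays bore on this split: with every array centred on its median the 1 dpa calls were 7 higher and 6 lower, with quantile normalization 6 and 4, and at 5 dpa both gave 7 and 0. At 3 dpa both gave 6 and 7. The 1 dpa count of 17 became 11 without unamputated replicate 3 or 1 dpa replicate d and 8 without replicate e. Without replicate a the 5 dpa count of 7 became 3. With a pseudocount of 0.25 the 1 dpa count became 10 and the 3 dpa count of 13 became 8. Over the 6 comparisons 37 probe sets of 32 genes were called at least once, and 39 probe sets never were.

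**Figure D1:**
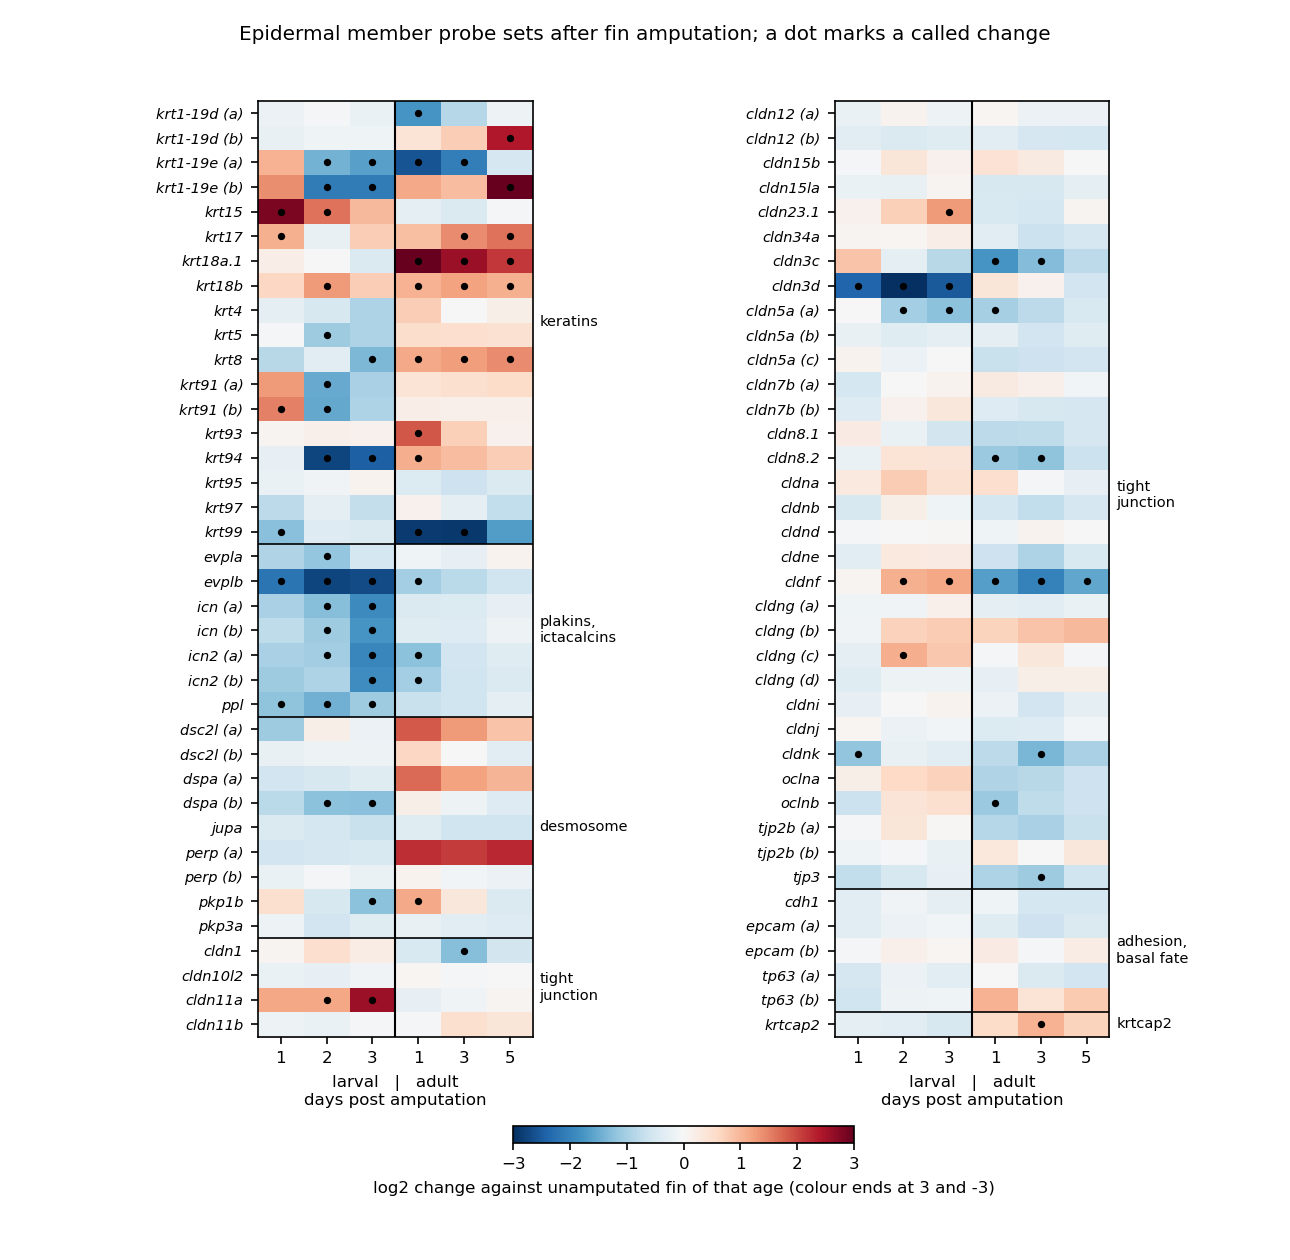
Each row is 1 of the 76 member probe sets, grouped by role with letters for probe sets of 1 gene, and each column 1 day post amputation in larval or adult fin. Colour gives the log2 change against unamputated fin of the same age and a dot marks a called change: the 7 rows of plakins and ictacalcins are blue in every larval column, while the larval and adult columns of krt18a.1, krt94 and cldnf differ in colour.

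Keratins were called in both directions in both ages. Of 18 keratin probe sets, 3, 2 and 0 rose in larval fin at 1, 2 and 3 dpa, and 1, 6 and 4 fell. Of all probe sets 2.43%, 6.23% and 5.08% rose and 1.58%, 6.32% and 5.51% fell on these days. At 1, 3 and 5 dpa in adult fin 5, 4 and 6 keratin probe sets rose, and 3, 2 and 0 fell. There 8.68%, 8.10% and 7.01% of all probe sets rose and 7.40%, 6.19% and 4.46% fell. The median log2 change of the keratins was 0.01, -0.28 and -0.57 in larval fin and 0.46, 0.49 and 0.32 in adult fin.

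The largest larval rise was that of krt15, a type I keratin whose mammalian namesake marks basal keratinocytes. Its larval ratio was 0.130, 0.128 and 0.113 on the unamputated arrays, 1.61, 0.707 and 0.590 at 1 dpa, 0.418, 0.370 and 0.367 at 2 dpa, and 0.200, 0.347 and 0.206 at 3 dpa. All 9 regenerating arrays lay above the unamputated ones, the 1 dpa arrays were the highest, and each day lay below the day before without overlap. The rise was 2.83 ± 0.32 on the log2 scale at 1 dpa (limma adjusted p = 0.00045) and 1.64 ± 0.32 at 2 dpa (adjusted p = 0.0027). With a pseudocount of 0.25 the 2 dpa rise was not called. At 3 dpa the change of 0.97 ± 0.32 stayed under 2-fold and was not called, and without 3 dpa replicate 3 it was 1.09 and called. In adult fin krt15 was 59.1, 55.5 and 58.3 on the unamputated arrays, 39.8, 42.4 and 62.1 at 1 dpa, 46.1, 47.5 and 35.7 at 3 dpa, and 66.0, 51.9 and 53.0 at 5 dpa. The adult arrays overlapped between unamputated fin and 1 or 5 dpa, the 3 dpa arrays lay below, and none of the changes (-0.29, -0.43 and -0.03) was called. With quantile normalization these were 0.22, 0.25 and 0.54, above zero.

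The type I keratins krt91 and krt1-19e stood above the unamputated arrays at 1 dpa in larvae and below them at 2 dpa. For krt91, probe set b gave 0.287, 0.311 and 0.214 on the unamputated arrays, 1.0, 0.631 and 0.696 at 1 dpa, 0.0893, 0.0952 and 0.0901 at 2 dpa, and 0.0829, 0.0937 and 0.362 at 3 dpa. The 1 dpa arrays lay above the unamputated ones, all 2 dpa arrays lay below them, and at 3 dpa replicate 3 was high while the other arrays were low. The 1 dpa rise of 1.51 ± 0.45 (adjusted p = 0.047) was lost when any 1 of the 6 arrays was left out (1.31 to 1.64) and with quantile normalization (1.25), and probe set a gave 1.27 ± 0.45, not called. At 2 dpa both krt91 probe sets fell, by 1.5 ± 0.45 and 1.55 ± 0.45. Those calls were lost when any 1 array was left out, except for probe set b without unamputated replicate 3, with values of -1.57 to -1.46 for a and -1.71 to -1.44 for b.

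Another keratin with this course was krt1-19e, whose promoter is used to drive transgenes in basal keratinocytes of zebrafish. Its probe set a gave larval ratios of 1.24, 1.34 and 1.24 on the unamputated arrays, 2.95, 2.51 and 2.41 at 1 dpa, 0.415, 0.549 and 0.471 at 2 dpa, and 0.280, 0.248 and 1.0 at 3 dpa. Its probe set b gave 1.44, 1.66 and 1.22 on the unamputated arrays, 5.15, 3.39 and 2.97 at 1 dpa, 0.303, 0.423 and 0.291 at 2 dpa, and 0.193, 0.225 and 0.838 at 3 dpa. On both, the 1 dpa arrays were the highest and the 2 dpa arrays lay below the unamputated ones, as did all 3 dpa arrays, of which replicate 3 was the highest. The 1 dpa changes of 1.04 ± 0.41 and 1.38 ± 0.46 were not called (adjusted p = 0.12 and 0.070). Both probe sets fell at 2 dpa, by 1.42 ± 0.41 and 2.1 ± 0.46, and at 3 dpa, by 1.63 ± 0.41 and 2.11 ± 0.46. The 2 dpa call of probe set a was lost without any 1 array except 2 dpa replicate 2, at -1.53 to -1.32.

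In larvae krt17, the namesake of a keratin induced at wounds in mammals, rose at 1 dpa by 1.07 ± 0.28 (adjusted p = 0.030). Its larval ratio was 0.838, 0.894 and 0.960 on the unamputated arrays, 2.19, 1.87 and 1.63 at 1 dpa, 0.873, 1.000 and 0.510 at 2 dpa, and 0.983, 2.03 and 1.70 at 3 dpa. The 1 dpa arrays lay above the unamputated ones, the 2 dpa arrays overlapped them, and the 3 dpa arrays lay above again without a call. The 1 dpa call was lost when any array but 1 dpa replicate 3 was left out (0.96 to 1.17). By contrast krt99 fell at 1 dpa by 1.26 ± 0.36, a call lost without any 1 array except 1 dpa replicate 1 (-1.76 to -1.01) and with quantile normalization (-1.16). The larval krt99 ratio was 1.77, 1.63 and 2.03 on the unamputated arrays, 1.5, 0.528 and 0.534 at 1 dpa, 1.49, 1.65 and 1.08 at 2 dpa, and 1.35, 1.77 and 1.0 at 3 dpa. Both 1 dpa replicates 2 and 3 were low and replicate 1 lay nearer to the unamputated arrays, and later days overlapped them.

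For krt94 the larval ratio was 0.425, 0.622 and 0.415 on the unamputated arrays, 0.427, 0.410 and 0.372 at 1 dpa, 0.0822, 0.0469 and 0.0927 at 2 dpa, and 0.102, 0.0822 and 0.0810 at 3 dpa. The 1 dpa arrays overlapped the unamputated ones, and all 6 arrays at 2 and 3 dpa lay below every earlier array. On the log2 scale the change was -2.75 ± 0.24 at 2 dpa (adjusted p = 1.4e-05) and -2.44 ± 0.24 at 3 dpa. The type II keratin krt5, whose mammalian namesake is a basal chain, ranged from 0.787 to 0.905 on unamputated arrays and 0.379 to 0.413 at 2 dpa. The change of -1.06 ± 0.26 was -0.99 and not called without unamputated replicate 3. At 3 dpa its change was -0.93 ± 0.26 and not called.

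The simple epithelial keratins krt8 and krt18, which pair with each other in mammals, have 3 genes here. In larval fin krt18b was 0.558, 0.556 and 0.580 on the unamputated arrays, 0.922, 0.829 and 0.851 at 1 dpa, 1.46, 1.30 and 1.36 at 2 dpa, and 1.24, 0.975 and 0.703 at 3 dpa. All regenerating arrays lay above the unamputated ones, and the 2 dpa arrays were the highest. The rise was 1.28 ± 0.17 at 2 dpa (adjusted p = 0.00020), with 0.62 and 0.75 at 1 and 3 dpa, under 2-fold and not called. With a pseudocount of 0.25 the 2 dpa rise was not called either. The larval krt18a.1 ratio was 0.918, 0.911 and 0.986 on the unamputated arrays, 1.07, 1.11 and 1.03 at 1 dpa, 1.1, 0.837 and 0.920 at 2 dpa, and 1.000, 0.757 and 0.433 at 3 dpa. These arrays stayed close to the unamputated ones, apart from low values of replicates 2 and 3 at 3 dpa, and none of the changes (0.19, 0.01 and -0.44) was called. For krt8 the larval ratio was 1.40, 1.37 and 1.25 on the unamputated arrays, 0.906, 0.767 and 0.600 at 1 dpa, 1.12, 1.12 and 1.0 at 2 dpa, and 0.816, 0.801 and 0.228 at 3 dpa. Every regenerating array lay below the unamputated ones, without a call at 1 or 2 dpa (-0.84 and -0.31). Replicate 3 was far below the others at 3 dpa, and the change of -1.34 ± 0.39 on that day was -0.73 and not called without it. That call was also lost without any 1 of the unamputated arrays (-1.31, -1.32 and -1.38).

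In adult fin the same simple epithelial keratins were higher at all 3 days. The adult krt18a.1 ratio was 0.341, 0.352 and 0.235 on the unamputated arrays, 2.44, 2.74 and 2.78 at 1 dpa, 1.70, 2.00 and 1.82 at 3 dpa, and 1.2, 1.2 and 1.58 at 5 dpa. The unamputated arrays were the lowest of the 12, and the ratio was highest at 1 dpa and lower at each later day, without overlap between days. The rise was 3.12 ± 0.17 at 1 dpa (adjusted p = 1.0e-05), 2.59 ± 0.17 at 3 dpa and 2.11 ± 0.17 at 5 dpa, and each call remained in all 6 leave-outs. For krt8 the adult ratio was 0.623, 0.641 and 0.281 on the unamputated arrays, 0.798, 1.05 and 1.44 at 1 dpa, 1.37, 1.07 and 1.02 at 3 dpa, and 1.16, 1.17 and 1.60 at 5 dpa. Every regenerating array lay above every unamputated one, of which replicate 3 was far the lowest. The rise of 1.14 ± 0.32 at 1 dpa was 0.75 without unamputated replicate 3 and 0.93 without 1 dpa replicate e, both not called. At 3 dpa 1.24 ± 0.32 became 0.85 without unamputated replicate 3, while the 5 dpa rise of 1.43 ± 0.32 was called in all 6 leave-outs.

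The adult krt18b ratio was 1.0, 0.845 and 0.731 on the unamputated arrays, 1.44, 1.77 and 2.12 at 1 dpa, 2.28, 1.53 and 2.16 at 3 dpa, and 1.99, 1.55 and 1.8 at 5 dpa. Each regenerating array lay above the unamputated ones, by 1.04 ± 0.20, 1.2 ± 0.20 and 1.06 ± 0.20 at 1, 3 and 5 dpa. The change was under 2-fold at 1 dpa without unamputated replicate 3 (0.93) or 1 dpa replicate e (0.91), and at 5 dpa without unamputated replicate 3 (0.95) or 5 dpa replicate a (0.97). Adult krt17 was 0.292, 0.320 and 0.728 on the unamputated arrays, 0.823, 0.726 and 0.730 at 1 dpa, 1.18, 0.704 and 1.55 at 3 dpa, and 1.32, 1.04 and 1.47 at 5 dpa. Unamputated replicate 3 stood above the other unamputated arrays and overlapped the 1 and 3 dpa arrays, whereas all 5 dpa arrays lay above it. The change was 0.89 ± 0.36 at 1 dpa, not called, and the gene rose by 1.42 ± 0.36 at 3 dpa (adjusted p = 0.011) and 1.63 ± 0.36 at 5 dpa.

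**Figure D2:**
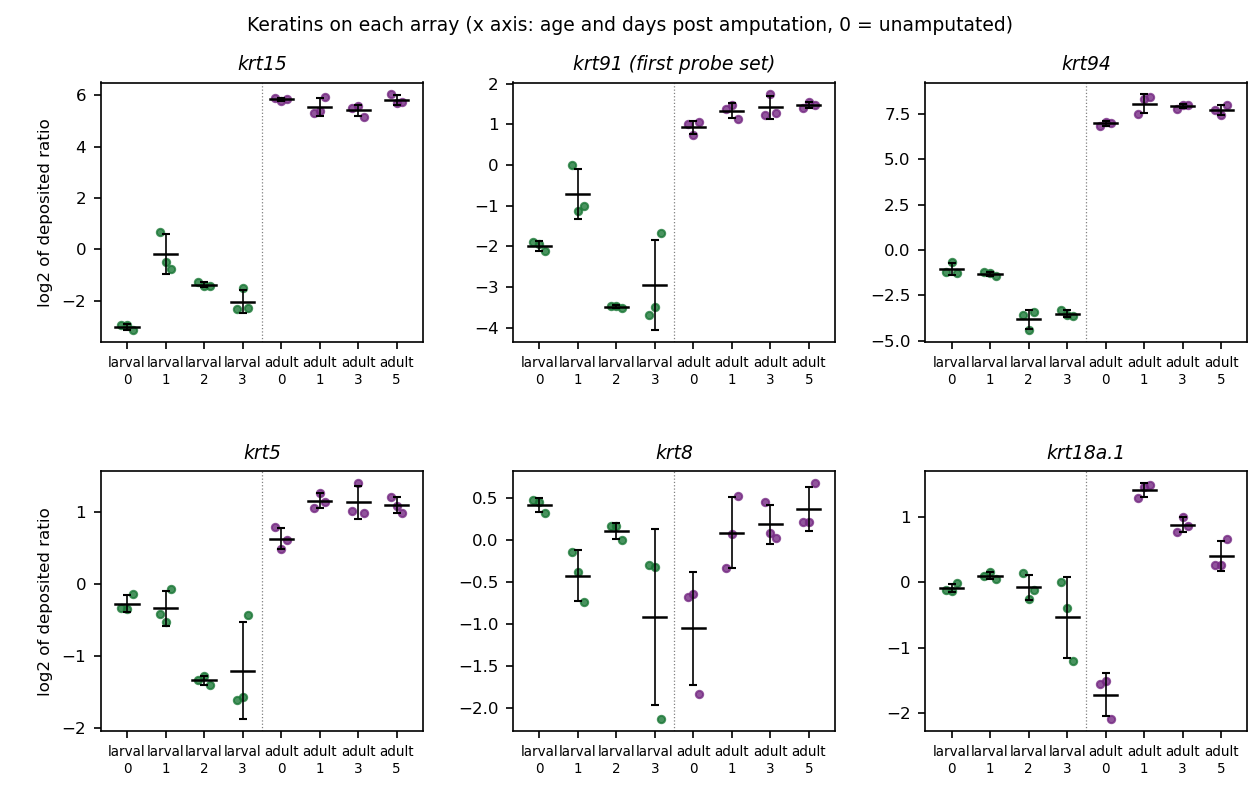
Log2 of the deposited ratio is plotted for 6 keratins on each of the 24 arrays, larval in green and adult in purple, by day post amputation with 0 for unamputated fin. Points are arrays, and bars give the mean and SD of 3: krt15 is highest at 1 dpa among larval arrays, and krt18a.1 rises in adult fin from the lowest values of its panel.

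The type I keratins krt93 and krt94 rose in adult fin at 1 dpa. The adult ratio of krt93 was 114, 68.9 and 131 on the unamputated arrays, 391, 299.9 and 428 at 1 dpa, 211, 355 and 59.6 at 3 dpa, and 129, 117 and 90.1 at 5 dpa. The 1 dpa arrays lay above all unamputated ones, and the later days overlapped them. The rise was 1.87 ± 0.53 (adjusted p = 0.017), and the call was lost without unamputated replicate 2 (1.59) or 1 dpa replicate e (1.76). For krt94 the adult ratio was 114, 135 and 130.3 on the unamputated arrays, 179, 314 and 345 at 1 dpa, 220.1, 252 and 254 at 3 dpa, and 207, 173 and 259 at 5 dpa. All regenerating arrays lay above the unamputated ones, and the change was called at 1 dpa (1.09 ± 0.23) but not at 3 or 5 dpa (0.94 and 0.74). Without 1 dpa replicate d or e it was 0.98 or 0.91 and not called.

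The largest adult falls were those of krt99 and krt1-19e. Adult krt99 was 1.90, 1.83 and 1.51 on the unamputated arrays, 0.575, 0.0938 and 0.246 at 1 dpa, 0.214, 0.727 and 0.0840 at 3 dpa, and 0.990, 0.955 and 0.169 at 5 dpa. Every regenerating array lay below the unamputated ones, with a wide spread at each day. On the log2 scale the change was -2.88 ± 0.91 at 1 dpa (adjusted p = 0.026) and -2.89 ± 0.91 at 3 dpa. At 1 dpa the call was lost without unamputated replicate 1 or 2 or 1 dpa replicate d or e (-3.52 to -2.21), and with quantile normalization (-2.59). At 3 dpa it was lost without any 1 array except 3 dpa replicate b (-3.70 to -2.14), and at 5 dpa the change of -1.68 ± 0.91 was not called.

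On probe set a of krt1-19e the adult ratio was 1.24, 1.2 and 1.15 on the unamputated arrays, 0.431, 0.0670 and 0.267 at 1 dpa, 0.467, 0.266 and 0.187 at 3 dpa, and 1.25, 0.722 and 0.669 at 5 dpa. The 1 and 3 dpa arrays lay below the unamputated ones and the 5 dpa arrays overlapped them. On the log2 scale the change was -2.60 ± 0.59 at 1 dpa (adjusted p = 0.0061) and -2.07 ± 0.59 at 3 dpa, where it was not called without 3 dpa replicate c (-1.77). Probe set b of this gene gave 0.668, 0.439 and 0.0319 on the unamputated arrays, 0.382, 0.262 and 1.0 at 1 dpa, 1.43, 0.399 and 0.114 at 3 dpa, and 4.44, 1.03 and 2.99 at 5 dpa. Its changes at 1 and 3 dpa had the opposite sign (1.14 ± 1.21 and 0.93 ± 1.21, not called), unamputated replicate 3 was far below the others, and the 5 dpa arrays lay above all unamputated ones. The 5 dpa rise of 3.5 ± 1.21 (adjusted p = 0.047) was lost without any 1 array except unamputated replicate 1 (2.14 to 4.34).

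The related gene krt1-19d also had probe sets that differed. Probe set b gave adult ratios of 77.8, 70.0 and 13.8 on the unamputated arrays, 43.8, 37.5 and 106 at 1 dpa, 111, 125 and 24.9 at 3 dpa, and 247, 186 and 243 at 5 dpa. Unamputated replicate 3 was the lowest of the 12 arrays and the 5 dpa arrays were the highest. The 5 dpa rise of 2.41 ± 0.76 (adjusted p = 0.034) was lost without unamputated replicate 3 or any 1 of the 5 dpa arrays (1.60 to 2.85). Probe set a ranged from 1064 to 1269 in unamputated fin and 149.6 to 612 at 1 dpa, a change of -1.76 ± 0.46 that was -0.84 and not called with quantile normalization. In larvae both probe sets had changes between -0.22 and -0.05, none of them called. Of the remaining keratins, krt4, krt95 and krt97 were not called at any day, with changes between -0.92 (krt4 in larvae at 3 dpa) and 0.75 (krt4 in adults at 1 dpa).

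Most envelope plakin and ictacalcin probe sets fell in larvae at 2 and 3 dpa. Of 7 probe sets of 5 genes, at 1, 2 and 3 dpa there were 2, 6 and 6 that fell and 0 that rose. On these days 1.58%, 6.32% and 5.51% of all probe sets fell and 2.43%, 6.23% and 5.08% rose. All 7 log2 changes were below zero on each day, with medians of -0.98, -1.15 and -1.86 against medians of all probe sets near zero. In adult fin 3 fell at 1 dpa and 0 were called at 3 and 5 dpa, with medians of -0.68, -0.57 and -0.29, or -0.50, -0.39 and -0.13 relative to the median of all probe sets. There 7.40% of all probe sets fell at 1 dpa, and 14.3% and 11.5% were called at 3 and 5 dpa. At an unadjusted limma p under 0.05 there were 5 of 7 at 3 dpa and 1 of 7 at 5 dpa, where 53.1% and 47.2% of all probe sets passed.

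Envoplakin b (evplb) had the largest fall of the group. Its larval ratio was 3.14, 2.76 and 2.91 on the unamputated arrays, 0.772, 0.619 and 0.556 at 1 dpa, 0.442, 0.444 and 0.422 at 2 dpa, and 0.531, 0.630 and 0.285 at 3 dpa. Every regenerating array lay far below the unamputated ones, and the 2 dpa arrays lay below the 1 dpa arrays. The log2 change was -2.19 ± 0.24 at 1 dpa (limma adjusted p = 0.00037), -2.75 ± 0.24 at 2 dpa (1.4e-05) and -2.68 ± 0.24 at 3 dpa (1.9e-05), and each call remained in all 6 leave-outs. The adult evplb ratio was 2.03, 1.70 and 2.14 on the unamputated arrays, 1.43, 0.602 and 1.04 at 1 dpa, 1.05, 1.28 and 1.03 at 3 dpa, and 1.0, 1.71 and 1.23 at 5 dpa. At 1 and 3 dpa the arrays lay below the unamputated ones, while 5 dpa replicate b just reached them. The change of -1.01 ± 0.29 at 1 dpa was called, but not without unamputated replicate 1 (-0.98) or 3 (-0.95), nor without 1 dpa replicate d (-0.68). It was also under 2-fold with arrays centred on their median (-0.87) or quantile normalized (-0.97). At 3 and 5 dpa the changes were -0.80 ± 0.29 and -0.60 ± 0.29, not called.

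Periplakin (ppl), the partner of envoplakin, ranged from 1.98 to 2.27 on the larval unamputated arrays, 0.862 to 0.984 at 1 dpa, 0.719 to 0.846 at 2 dpa and 0.919 to 1.07 at 3 dpa. It fell by 1.2 ± 0.11, 1.43 ± 0.11 and 1.06 ± 0.11, and the 3 dpa value was -0.99 without replicate 3 and -0.94 with quantile normalization, not called. Envoplakin a (evpla) fell at 2 dpa by 1.15 ± 0.16, or -0.97 and not called without unamputated replicate 3, and was -0.91 and -0.53 at 1 and 3 dpa, not called. In adult fin neither was called: ppl was -0.68, -0.59 and -0.29, and evpla was -0.14, -0.24 and 0.11.

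Ictacalcins are small calcium-binding proteins of the S100 family found in fish epithelia. The 4 probe sets of icn and icn2 and 1 probe set of epcam carry the same cluster number in their identifiers. Of the 4, 2 are of the kind in which some probes may bind other sequences, so icn and icn2 are not cleanly separated. Probe set b of krt91, c of cldng and b of epcam are also of this kind, so their readings may not be specific to those genes. The jupa probe set and probe set b of cldn7b are of a kind that similar transcripts may share, with the same limit. On probe set a, icn ranged from 0.933 to 1.1 on the larval unamputated arrays, 0.389 to 0.614 at 1 dpa, 0.269 to 0.569 at 2 dpa and 0.130 to 0.402 at 3 dpa, where replicate 3 was the lowest. All regenerating arrays lay below the unamputated ones. At 3 dpa all 4 probe sets fell, by 1.91 ± 0.40 and 1.77 ± 0.35 for icn and 1.97 ± 0.30 and 1.86 ± 0.33 for icn2, and each call remained in all 6 leave-outs.

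At 2 dpa icn fell on both probe sets (-1.29 ± 0.40 and -1.06 ± 0.35) and icn2 on probe set a (-1.04 ± 0.30). The icn calls were lost without any 1 array except 2 dpa replicate 1 (-1.52 to -0.98 and -1.26 to -0.79). The icn2 call was lost without unamputated replicate 1 or 3 or 2 dpa replicate 3 (-1.19 to -0.80). In adult fin icn2 fell at 1 dpa on both probe sets, by 1.24 ± 0.34 and 1.02 ± 0.24, from a range of 3.24 to 3.31 on unamputated arrays to 0.843 to 2.67 on probe set a, where replicate b was the highest. Without 1 dpa replicate d these were -0.88 and -0.83 and not called, and probe set b also lost the call without unamputated replicate 3 (-0.93) or 1 dpa replicate e (-0.91) and with centred arrays (-0.87). The adult icn changes, between -0.42 and -0.15, were not called.

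**Figure D3:**
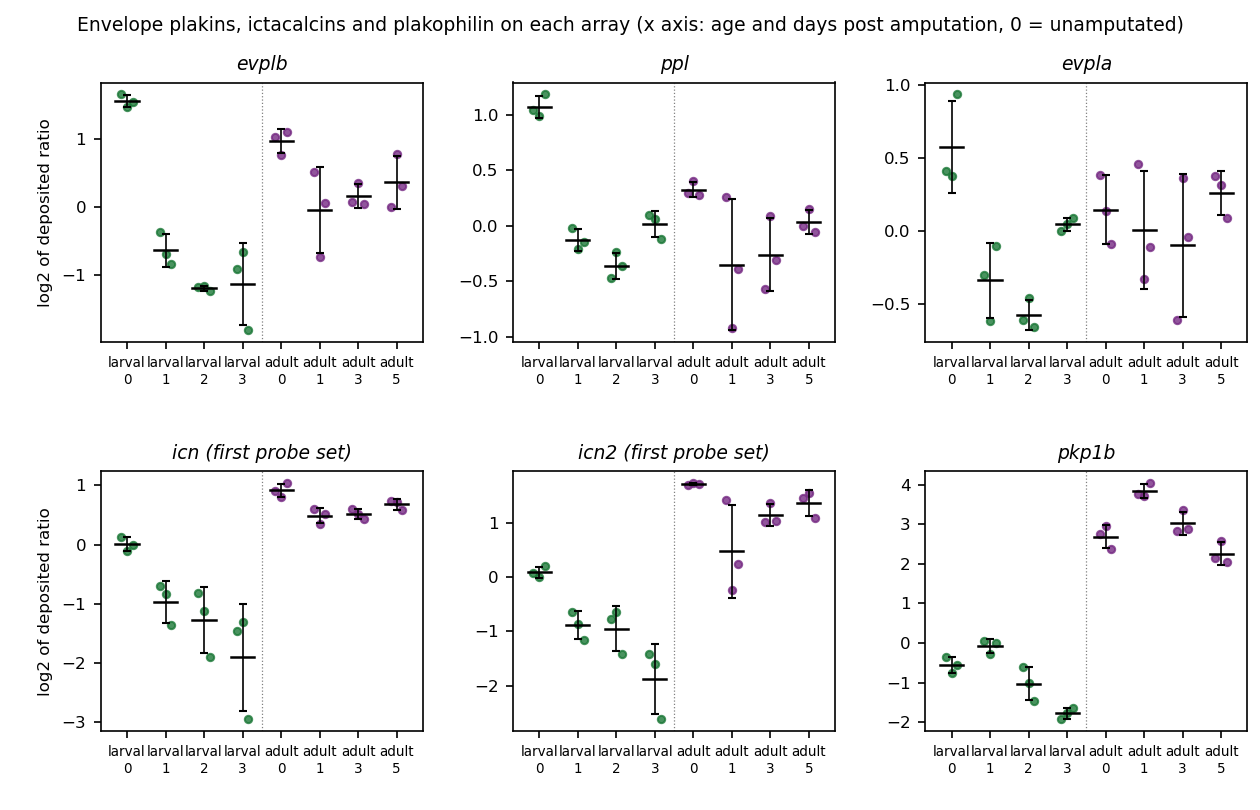
Log2 of the deposited ratio is plotted for evplb, ppl, evpla, icn, icn2 and the plakophilin pkp1b on each of the 24 arrays, larval in green and adult in purple, by day post amputation with 0 for unamputated fin. Points are arrays, and bars give the mean and SD of 3: larval evplb falls from ratios of 2.76 to 3.14 in unamputated fin to at most 0.772 after amputation.

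Desmosome genes had 0 to 2 probe sets called in each comparison with unamputated fin. Of 9 probe sets of 6 genes, 0 were called in larvae at 1 dpa, 1 fell at 2 dpa and 2 fell at 3 dpa, with medians of -0.43, -0.49 and -0.36. On these days 4.01%, 12.5% and 10.6% of all probe sets were called. In adult fin 1 rose at 1 dpa and 0 were called at 3 and 5 dpa, with medians of 0.61, 0.01 and -0.31. There 16.1%, 14.3% and 11.5% of all probe sets were called. By limma's unadjusted p under 0.05 there were 5 of 9 in larvae at 1 dpa, where 26.7% of all probe sets passed. In adults there were 1 and 2 of 9 at 3 and 5 dpa, where 53.1% and 47.2% did.

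Desmoplakin a (dspa), which links the desmosome to keratin filaments, fell in larvae on its probe set b. The ratio ranged from 0.885 to 1.03 on unamputated arrays, 0.507 to 0.609 at 1 dpa, 0.395 to 0.436 at 2 dpa and 0.334 to 0.499 at 3 dpa. All regenerating arrays lay below the unamputated ones. The log2 change was -1.23 ± 0.14 at 2 dpa (adjusted p = 8.8e-05) and -1.25 ± 0.14 at 3 dpa (8.8e-05), after -0.82 at 1 dpa, not called. Probe set a had smaller changes of the same sign (-0.58, -0.49 and -0.35), not called.

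Plakophilin 1b (pkp1b), a desmosomal plaque protein, was called lower in larvae and higher in adults, on different days. In larvae it ranged from 0.595 to 0.789 on unamputated arrays, 0.827 to 1.03 at 1 dpa and 0.264 to 0.322 at 3 dpa, a change of -1.23 ± 0.20 at 3 dpa (adjusted p = 0.00082) after 0.47 and -0.48 at 1 and 2 dpa, not called. In adult fin it ranged from 5.16 to 7.73 on unamputated arrays to 13.1 to 16.4 at 1 dpa. All 1 dpa arrays lay above the unamputated ones, the 3 and 5 dpa arrays overlapped them, and the 1 dpa rise of 1.15 ± 0.21 (adjusted p = 0.0020) was 0.99 and not called without unamputated replicate 3. The adult minus larval difference of its change was 1.56 ± 0.29 at 3 dpa (adjusted p = 0.00045) and 0.68 at 1 dpa, where it was not called.

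The other desmosome genes were not called at any day. Plakoglobin (jupa) had changes from -0.66 to -0.37, plakophilin 3a (pkp3a) from -0.57 to -0.16, and desmocollin (dsc2l) from -1.06 to 1.83 over its 2 probe sets. Perp, a membrane protein of desmosomes that p63 controls in mice, spread widely between adult arrays. Its probe set a gave 7.26, 3.26 and 0.773 on the unamputated arrays, 3.13, 48.0 and 12.3 at 1 dpa, 5.98, 103 and 2.37 at 3 dpa, and 8.08, 9.80 and 25.9 at 5 dpa. Replicate d at 1 dpa and replicate b at 3 dpa were far above the other arrays of their groups, and unamputated replicate 3 was the lowest. The changes of 2.22 ± 1.42, 2.11 ± 1.42 and 2.27 ± 1.42 were not called, and probe set b of the gene stayed between -0.19 and 0.11.

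Tight junction genes were the largest group, with calls in both directions in larvae and calls lower in adults. Of 36 probe sets of 28 genes, 0, 3 and 3 rose in larvae at 1, 2 and 3 dpa, and 2 fell on each day. Of all probe sets 2.43%, 6.23% and 5.08% rose and 1.58%, 6.32% and 5.51% fell on these days. In adult fin 0 rose on any day, and 5, 6 and 1 fell at 1, 3 and 5 dpa. There 8.68%, 8.10% and 7.01% of all probe sets rose and 7.40%, 6.19% and 4.46% fell. The medians of the 36 were -0.14, 0.01 and 0.06 in larvae and -0.37, -0.51 and -0.41 in adults, the latter -0.19, -0.33 and -0.24 relative to the median of all probe sets.

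Claudin 11a (cldn11a), whose mammalian counterpart seals myelin and the seminiferous tubule, had the largest larval rise of the group. Its larval ratio was 0.545, 0.604 and 0.538 on the unamputated arrays, 0.844, 1.60 and 1.45 at 1 dpa, 2.1, 1.32 and 0.705 at 2 dpa, and 2.45, 4.20 and 3.56 at 3 dpa. Every regenerating array lay above the unamputated ones, and all 3 dpa arrays lay above all others. The rise was 2.56 ± 0.36 at 3 dpa (limma adjusted p = 0.00037), called in all 6 leave-outs. At 2 dpa it was 1.15 ± 0.36, a call lost without any 1 array except 2 dpa replicate 3 (0.78 to 1.57) and with quantile normalization (1.15), and at 1 dpa 1.16 ± 0.36, not called. Adult cldn11a was 0.490, 0.696 and 0.701 on the unamputated arrays, 0.617, 0.524 and 0.454 at 1 dpa, 0.506, 0.605 and 0.616 at 3 dpa, and 0.667, 0.640 and 0.648 at 5 dpa. These arrays overlapped at every day and the changes lay between -0.23 and 0.07, not called.

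For cldn23.1 the larval ratio was 0.846, 0.596 and 0.747 on the unamputated arrays, 0.981, 0.720 and 0.692 at 1 dpa, 1.15, 1.44 and 1.0 at 2 dpa, and 1.84, 1.71 and 1.70 at 3 dpa. The 1 dpa arrays overlapped the unamputated ones, and the later days lay above them, highest at 3 dpa. The rise was 1.28 ± 0.18 at 3 dpa (adjusted p = 0.00034), after 0.71 ± 0.18 at 2 dpa, under 2-fold. In adult fin it was 0.789, 1.30 and 1.0 on the unamputated arrays, 0.814, 0.790 and 0.631 at 1 dpa, 0.406, 0.751 and 1.14 at 3 dpa, and 0.801, 1.04 and 1.46 at 5 dpa. The adult groups overlapped and none of the changes (-0.45, -0.52 and 0.08) was called.

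Claudin f (cldnf) rose in larvae and fell in adults. Its larval ratio was 1.0, 0.755 and 1.01 on the unamputated arrays, 0.978, 0.863 and 1.09 at 1 dpa, 1.78, 2.19 and 1.83 at 2 dpa, and 2.41, 1.77 and 2.04 at 3 dpa. The 1 dpa arrays overlapped the unamputated ones and all 6 later arrays lay above. The rise was 1.07 ± 0.16 at 2 dpa (adjusted p = 0.00043) and 1.17 ± 0.16 at 3 dpa, and the 2 dpa value was 0.94 without unamputated replicate 2 and 0.98 without 2 dpa replicate 2, not called. The adult ratio was 1.97, 1.03 and 2.03 on the unamputated arrays, 0.544, 0.572 and 0.428 at 1 dpa, 0.160, 0.556 and 0.681 at 3 dpa, and 0.376, 0.564 and 0.776 at 5 dpa. All regenerating arrays lay below all unamputated ones. The log2 change was -1.65 ± 0.50 at 1 dpa, -2.03 ± 0.50 at 3 dpa (adjusted p = 0.0100) and -1.55 ± 0.50 at 5 dpa (0.038).

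The 3 dpa call of cldnf remained in every leave-out. At 1 dpa it was lost without unamputated replicate 1 (-1.5) or 3 (-1.48), without 1 dpa replicate e (-1.52) and with quantile normalization (-1.52). At 5 dpa it was lost without unamputated replicate 1 (-1.40) or 3 (-1.38), without 5 dpa replicate a (-1.28) or b (-1.57), and with centred (-1.41) or quantile normalized arrays (-1.61).

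Claudin 3d (cldn3d) had the largest larval fall of all members at 1 and 2 dpa. Its larval ratio was 4.32, 4.61 and 4.31 on the unamputated arrays, 0.795, 1.07 and 0.716 at 1 dpa, 0.543, 0.542 and 0.526 at 2 dpa, and 1.2, 0.575 and 0.650 at 3 dpa. The unamputated arrays were far above all 9 regenerating ones. The log2 change was -2.38 ± 0.24 at 1 dpa, -3.04 ± 0.24 at 2 dpa (adjusted p = 7.1e-06) and -2.53 ± 0.24 at 3 dpa, and each call remained in all 6 leave-outs. Adult cldn3d was 1.03, 1.39 and 6.16 on the unamputated arrays, 12.6, 1.26 and 1.18 at 1 dpa, 0.771, 23.7 and 0.628 at 3 dpa, and 0.522, 6.62 and 0.787 at 5 dpa. Each adult group held 1 array well above its other arrays, the groups overlapped, and the changes (0.36 ± 1.55, 0.13 ± 1.55 and -0.57 ± 1.55) were not called.

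**Figure D4:**
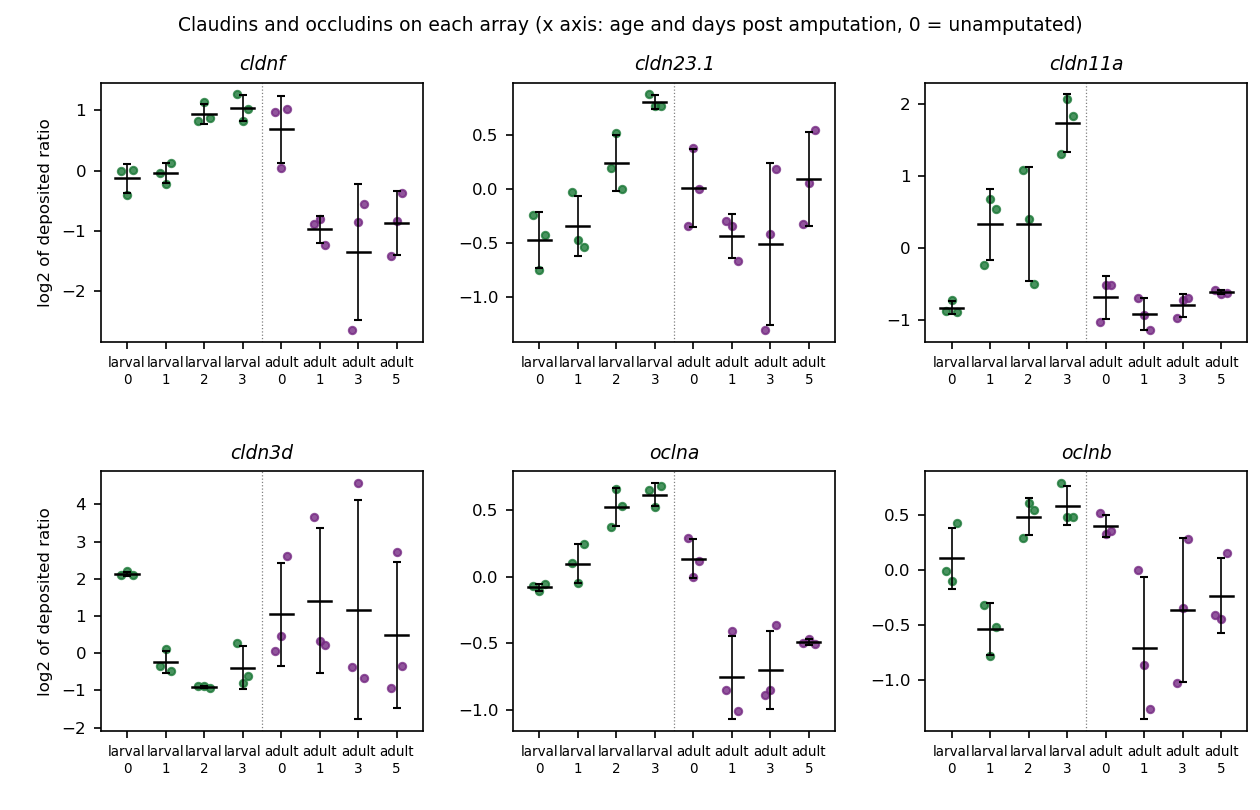
Log2 of the deposited ratio is plotted for 4 claudins and 2 occludins on each of the 24 arrays, larval in green and adult in purple, by day post amputation with 0 for unamputated fin. Points are arrays, and bars give the mean and SD of 3: cldnf lies above the unamputated arrays at 2 and 3 dpa in larvae and below them at every day in adults.

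Among other larval calls, cldn5a, known for barriers of the brain, fell on its probe set a from a range of 2.29 to 2.45 on unamputated arrays to 0.925 to 1.39 at 2 dpa and 0.909 to 1.09 at 3 dpa. The log2 change was -1.03 ± 0.17 at 2 dpa and -1.23 ± 0.17 at 3 dpa (adjusted p = 0.00035). At 2 dpa the call was lost without unamputated replicate 1 (-1.0) or 2 dpa replicate 3 (-0.87) and with quantile normalization (-0.86). The endothelial gene kdrl fell on the same days as given above, and its part in the cldn5a values was not tested. The 2 other probe sets of cldn5a were not called. Of the 4 probe sets of cldng, c rose at 2 dpa (1.08 ± 0.20), while a, b and d had -0.12, 0.70 and -0.14. The glial claudin cldnk, which stands in the list of neuron and glia markers too, fell at 1 dpa by 1.18 ± 0.22 (adjusted p = 0.0064), from 1.96 to 2.70 on unamputated arrays to 0.842 to 1.42. Of the 10 other probe sets of that list, 0 were called at 1 dpa, when 4.01% of all probe sets were.

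In adult fin cldn3c, cldn8.2 and cldnf fell at both 1 and 3 dpa. From 2.24 to 2.82 on the unamputated arrays cldn3c went to 0.575 to 0.921 at 1 dpa and 0.760 to 1.72 at 3 dpa, below and without overlap, by 1.77 ± 0.31 and 1.29 ± 0.31. From 0.663 to 0.835 cldn8.2 went to 0.344 to 0.372 and 0.249 to 0.515, also without overlap, by 1.11 ± 0.24 and 1.21 ± 0.24. With centred or quantile normalized arrays its 1 dpa value was -0.96 or -0.95 and not called. At 3 dpa cldnk (-1.37 ± 0.22), cldn1 (-1.28 ± 0.25) and the scaffold gene tjp3 (-1.06 ± 0.19) also fell. The counterpart of cldn1 is required for the skin barrier in mice. The tjp3 value was -0.91 without 3 dpa replicate a, -0.92 with centred and -1.0 with quantile normalized arrays, not called.

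At 1 dpa cldn5a probe set a (-1.0 ± 0.24) and occludin b (oclnb, -1.1 ± 0.36) also fell in adults. The cldn5a call was lost without unamputated replicate 1 (-0.88) or 2 (-0.99), without 1 dpa replicate d (-0.82) or e (-1.0), and with either other scaling (-0.85 and -0.83). The oclnb call was lost without any 1 array except 1 dpa replicate b (-1.46 to -0.83), and with either other scaling (-0.96 and -1.01). Occludin a (oclna) was not called, but its larval arrays lay above the unamputated ones at all days (0.18 ± 0.11, 0.60 ± 0.11 and 0.70 ± 0.11) and its adult arrays lay below them at all days (-0.89 ± 0.18, -0.84 ± 0.18 and -0.63 ± 0.18), each under 2-fold. Likewise tjp2b probe set a was lower on all adult arrays after amputation, at log2 changes of -0.86, -0.98 and -0.68, without a call.

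The remaining tight junction genes besides oclna and tjp2b were not called at any day: cldn10l2, cldn11b, cldn12, cldn15b, cldn15la, cldn34a, cldn7b, cldn8.1, cldna, cldnb, cldnd, cldne, cldni and cldnj. Claudin b, which marks the lateral line and epidermis of zebrafish, had changes from -0.73 in adults at 3 dpa to 0.18 in larvae at 2 dpa. Claudin e, a gene of the superficial layer, ran from -0.93 to 0.29.

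The basal fate gene tp63 and the adhesion genes epcam and cdh1 were not called in any of the 6 comparisons. In adults tp63 probe set a, epcam probe set a and cdh1 were lower at 3 and 5 dpa, by less than 2-fold. Their limma adjusted p was 0.025, 0.0060 and 0.037 at 3 dpa and 0.0091, 0.035 and 0.046 at 5 dpa. For probe sets b of tp63 and epcam it was 0.68 and 0.95 at 3 dpa and 0.42 and 0.57 at 5 dpa. At an unadjusted limma p under 0.05, 3 of the 5 probe sets of these genes passed in larvae at 1 dpa, 0 at 2 and 3 dpa, and 1, 3 and 3 in adults at 1, 3 and 5 dpa. The shares of all probe sets that passed were 26.7%, 40.3% and 37.5% on the larval days and 54.6%, 53.1% and 47.2% on the adult days. The larval ratio of tp63 probe set a was 1.0, 0.873 and 1.09 on the unamputated arrays, 0.603, 0.636 and 0.893 at 1 dpa, 0.800, 0.821 and 0.992 at 2 dpa, and 0.764, 0.751 and 0.855 at 3 dpa. Its adult ratio was 1.95, 1.95 and 1.94 on the unamputated arrays, 1.92, 1.8 and 2.1 at 1 dpa, 1.25, 1.52 and 1.61 at 3 dpa, and 1.51, 1.27 and 1.15 at 5 dpa. The 1 dpa adult arrays overlapped the unamputated ones and the 3 and 5 dpa arrays lay below, at log2 changes of -0.42 (95% interval -0.71 to -0.14) and -0.58 (-0.87 to -0.29), under 2-fold. In larvae the changes were -0.49, -0.18 and -0.32.

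Probe set b of tp63 gave larval ratios of 1.1, 1.11 and 0.868 on the unamputated arrays, 0.87, 0.469 and 0.760 at 1 dpa, 0.814, 0.946 and 1.000 at 2 dpa, and 1.04, 0.971 and 0.785 at 3 dpa. In adults it gave 2.21, 1.8 and 0.715 on the unamputated arrays, 1.14, 4.46 and 4.87 at 1 dpa, 3.2, 2.38 and 0.860 at 3 dpa, and 4.77, 1.16 and 2.63 at 5 dpa. Its adult arrays spread widely in each group and overlapped, and its adult changes (1.04 ± 0.74, 0.40 ± 0.74 and 0.79 ± 0.74) had the opposite sign to probe set a. The larval changes were -0.59, -0.15 and -0.14.

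E-cadherin (cdh1) was 0.928, 0.980 and 1.17 on the unamputated arrays, 0.680, 0.795 and 1.0 at 1 dpa, 0.993, 0.996 and 0.87 at 2 dpa, and 0.903, 0.730 and 0.945 at 3 dpa in larvae. It was 3.31, 2.78 and 2.96 on the unamputated arrays, 2.94, 3.01 and 2.37 at 1 dpa, 1.91, 2.38 and 1.97 at 3 dpa, and 1.76, 1.86 and 2.77 at 5 dpa in adults. Larval groups overlapped, and the adult 3 and 5 dpa arrays lay just below the unamputated ones. The changes were -0.33, -0.10 and -0.26 in larvae and -0.12, -0.53 and -0.53 in adults.

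The epithelial adhesion molecule epcam was 1.13, 1.2 and 1.22 on the unamputated arrays, 1.01, 0.859 and 0.934 at 1 dpa, 0.987, 1.03 and 1.11 at 2 dpa, and 1.22, 1.15 and 1.0 at 3 dpa on probe set a in larvae. In adults this probe set gave 1.18, 1.18 and 1.04 on the unamputated arrays, 0.977, 0.888 and 0.795 at 1 dpa, 0.634, 0.774 and 0.809 at 3 dpa, and 0.742, 0.825 and 0.959 at 5 dpa. The larval 1 and 2 dpa arrays and all adult regenerating arrays lay below the unamputated ones, at log2 changes of -0.34, -0.18, -0.36, -0.62 and -0.43, and 3 dpa larval arrays overlapped them. On probe set b larval epcam was 0.464, 0.454 and 0.432 on the unamputated arrays, 0.443, 0.431 and 0.452 at 1 dpa, 0.459, 0.527 and 0.510 at 2 dpa, and 0.467, 0.465 and 0.479 at 3 dpa. The adult values of probe set b were 0.541, 0.548 and 0.482 on the unamputated arrays, 0.674, 0.412 and 0.851 at 1 dpa, 0.578, 0.387 and 0.607 at 3 dpa, and 0.805, 0.428 and 0.668 at 5 dpa. Its groups overlapped except for larval 3 dpa, and its changes lay between -0.03 and 0.24.

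The probe set of krtcap2 ranged from 0.520 to 0.839 on adult unamputated arrays to 1.33 to 1.36 at 3 dpa, a rise of 1.05 ± 0.15 (adjusted p = 0.00086) that was 0.89 and not called without unamputated replicate 2. In larvae it was -0.27, -0.33 and -0.49.

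Successive days were compared within each age. From 1 to 2 dpa in larvae 2 of 76 rose and 9 fell, against 3.60% and 5.33% of all probe sets (8.93% together), and 7 of the 9 were keratin probe sets. Vehicle exposure was stated for the 2 dpa larvae and not for the 1 dpa larvae, and their array titles differ as given above. Day, age, vehicle and any difference in handling between arrays so titled cannot be told apart in this step. Other tissues also differed in it. The mean log2 ratio of the skeletal muscle list ran from 4.75 to 6.63 at 1 dpa and -0.10 to 0.47 at 2 dpa. For notochord and cartilage it ran from 3.83 to 3.98 and -0.38 to 0.46. For erythrocytes it ran from 2.32 to 3.33 and -0.40 to -0.38. Leukocyte means overlapped (-0.31 to 0.66 and 0.06 to 0.22). The part of these tissues in the member changes was not tested. The largest falls were those of krt1-19e probe set b, which fell by 3.48 ± 0.46 (adjusted p = 0.00034), of krt91, which fell by 3.05 ± 0.45 and 2.77 ± 0.45, and of krt94, which fell by 2.50 ± 0.24. These keratins lay below their 1 dpa arrays without overlap, as the ratios above show, and their calls remained in all 6 leave-outs. With a pseudocount of 0.25 the 11 calls became 6, all lower. The rises were cldng probe set c (1.35 ± 0.20) and oclnb (1.02 ± 0.17), and oclnb was not called without 1 dpa replicate 2 (0.90) or 2 dpa replicate 2 (0.95) or 3 (0.99).

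In the other steps limma called 0 members. From 2 to 3 dpa in larvae 0.200% of all probe sets rose and 0.0968% fell (0.297% together), from 1 to 3 dpa in adults 2.09% and 0.393% (2.48%), and from 3 to 5 dpa in adults 0.0387% and 0.0129% (0.0516%). At an unadjusted limma p under 0.05 there were 14, 12 and 10 of the 76 members in these steps, where 11.3%, 17.1% and 10.6% of all probe sets passed that threshold. Leaving out larval 3 dpa replicate 1 gave 1 called member from 2 to 3 dpa in larvae. Without adult 1 dpa replicate b or adult 3 dpa replicate a there was 1 from 1 to 3 dpa in adults. From 3 to 5 dpa in adults every leave-out gave 0.

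The adult change was then set against the larval change on the days both ages have, each relative to its own unamputated fin, in a fit to all 24 arrays. At 1 dpa the difference was called for 8 members higher and 9 lower (8.92% and 9.01% of all probe sets, 17.9% together). At 3 dpa it was called for 13 higher and 11 lower (11.5% and 10.6%, 22.1% together). The median difference of all probe sets was -0.13 and -0.18, and with arrays centred on their median the counts were 9 and 6 at 1 dpa and 14 and 8 at 3 dpa, with quantile normalization 10 and 3, and 16 and 8. At 1 dpa the 17 calls became 11 without adult 1 dpa replicate e or with a pseudocount of 0.25, and the 24 calls at 3 dpa became 13 with that pseudocount.

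At 3 dpa the calls were also counted by role, where 11.5% of all probe sets were higher in adults relative to larvae and 10.6% lower. Of the 7 plakin and ictacalcin probe sets 5 were higher in adults relative to larvae and 0 lower. These 5 were evplb and the 4 probe sets of icn and icn2. Of 18 keratins 5 were higher and 1 lower, of 9 desmosome probe sets 2 were higher, and of 36 tight junction probe sets 0 were higher and 10 lower. Among those 10, tjp2b probe set a and cldnk were at -0.83 and -0.86 relative to the median of all probe sets, under 2-fold. The keratins krt94, krt18a.1 and krt8 had the 3 largest positive differences among called members, at 3.38 ± 0.35 (adjusted p = 8.6e-07), 3.03 ± 0.31 (6.8e-07) and 2.58 ± 0.54 (0.0010), and evplb followed among the plakins with 1.88 ± 0.39 (0.0011). The claudins cldnf (-3.2 ± 0.55), cldn11a (-2.68 ± 0.42) and cldn23.1 (-1.8 ± 0.41) had the 3 most negative among called members, followed by cldn8.2, oclna and cldn1 at -1.59, -1.53 and -1.5. All of these calls remained in all 12 leave-outs. Differences that exceeded some of these but were not called were 3.04 for krt1-19e probe set b, 2.65 for cldn3d, 2.56 for perp probe set a and -2.45 for krt99. The keratin with the lower call was krt15 (-1.41), at -0.27 and not called with quantile normalization. The icn and icn2 differences, from 1.27 to 1.51, were lost on all 4 probe sets without larval 3 dpa replicate 3 (0.99, 0.92, 1.02 and 0.84). Those of icn2 were also lost without adult 3 dpa replicate b (1.28 and 1.18), on probe set a without larval unamputated replicate 3 (1.34), and on b without adult unamputated replicate 1 (1.19).

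At 1 dpa krt18a.1 (2.93 ± 0.31, adjusted p = 3.2e-06), dspa probe set a (2.29 ± 0.78, 0.032) and krt8 (1.99 ± 0.54, 0.0091) had the largest positive differences among called members. Larger than the dspa and krt8 differences but not called were dsc2l (2.90), perp (2.78) and cldn3d (2.74). The dspa value rests on adult ratios of 1.26, 1.32 and 0.499 in unamputated fin and 1.68, 8.69 and 1.99 at 1 dpa, where replicate d was far above the others, and without it the difference was 1.54 and not called. It was also lost without larval unamputated replicate 2 (2.11), larval 1 dpa replicate 2 (2.13) or adult unamputated replicate 3 (1.83). The most negative differences were krt1-19e probe set a (-3.64 ± 0.75, 0.0015), krt15 (-3.11 ± 0.39, 2.3e-05) and cldn3c (-2.63 ± 0.45, 0.00033). Probe set b of krt1-19e gave -0.24 and was not called. At 3 dpa 3 members were called in both ages, 2 of them in opposite directions (krt8 and cldnf), with krt1-19e probe set a lower in both. The cldnf calls remained in every leave-out, whereas both krt8 calls and the adult krt1-19e call were lost in some, as given above. At 1 dpa the 2 called in both ages were evplb and krt99, lower in each. The adult evplb call and both krt99 calls were lost in some leave-outs.

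**Figure D5:**
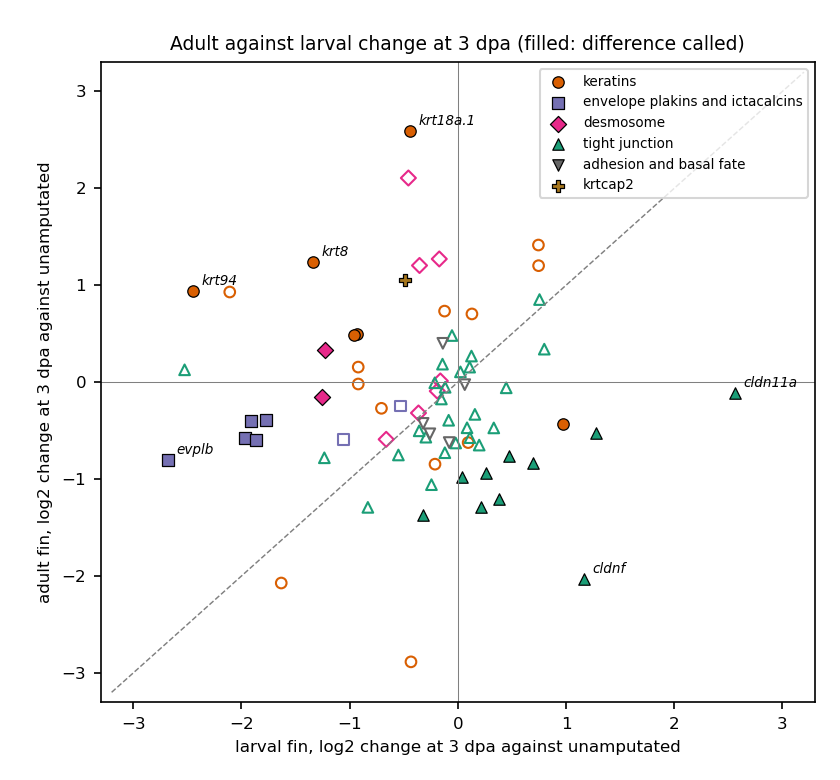
Each point is a member probe set, with its larval log2 change at 3 dpa on the x axis and its adult log2 change at 3 dpa on the y axis, shaped by role. The dashed line marks equal change and filled points mark a called difference between the ages: tight junction genes with a called difference lie below the line, while the called plakins and ictacalcins lie above it.

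Unamputated larval and adult fins differed in 29 of 76 members, 9 higher and 20 lower in larvae (13.4% and 13.6% of all probe sets, 27.0% together). Age, kit and RNA input changed together here and cannot be told apart. Keratins spanned the widest range. On krt1-19d probe set a the ratio was 1.16, 0.863 and 0.747 in larvae and 1064, 1135 and 1269 in adults, a difference of -10.31 ± 0.36, larval minus adult. Its probe set b differed by -5.85 ± 0.57. The krt15 arrays given above differed by -8.87 ± 0.28 and those of krt94 by -8.04 ± 0.25, both lower in larvae. In the other direction krt1-19e probe set b (2.76 ± 0.95), cldn11b (1.69 ± 0.22) and krt18a.1 (1.62 ± 0.22) were the highest in larvae relative to adults. Probe set a of krt1-19e gave 0.09 ± 0.53, not called, with overlapping arrays.

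The krt1-19e call was lost without adult unamputated replicate 3 (a log2 difference of 1.40) or larval unamputated replicate 2 (2.66). The cldn11b ratio was 1.60, 1.32 and 1.03 in larval and 0.518, 0.347 and 0.357 in adult unamputated fin. Among junction genes, cldna (-5.18 ± 0.36), pkp1b (-3.24 ± 0.21) and cdh1 (-1.56 ± 0.17) were lower in larval than in adult fin, without overlap of their arrays.

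From a longer list of other epithelial genes, the 41 measured, with 54 probe sets, were read beside the members. The list included basement membrane, hemidesmosome, transcription factor and secretory cell genes, and also catenin, annexin, S100 and galectin genes. At 1, 2 and 3 dpa in larvae the calls were 6, 10 and 7 higher and 6, 7 and 7 lower, beside 2.43%, 6.23% and 5.08% of all probe sets higher and 1.58%, 6.32% and 5.51% lower. At 1, 3 and 5 dpa in adults they were 5, 7 and 7 higher and 8, 9 and 3 lower, beside 8.68%, 8.10% and 7.01% higher and 7.40%, 6.19% and 4.46% lower. Named here are the 2 called with the largest rise and the 2 with the largest fall in each comparison with unamputated fin, and elf3 on every day. Days not given for the other named genes may also hold calls. The epithelial Ets factor gene elf3 rose in larvae by 1.86 ± 0.31, 2.35 ± 0.31 and 2.22 ± 0.31 at 1, 2 and 3 dpa. In adults elf3 fell by 2.45 ± 0.32, 1.83 ± 0.32 and 1.43 ± 0.32 at 1, 3 and 5 dpa. The hemidesmosome collagen gene col17a1b rose in larvae at 1 dpa by 2.15 ± 0.24, and the Krüppel-like factor gene klf2a by 2.65 ± 0.29 and 2.96 ± 0.29 at 2 and 3 dpa.

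The disulfide isomerase gene agr2, active in mucous cells, fell in larvae by 2.26 ± 0.65, 3.01 ± 0.65 and 3.32 ± 0.65, and its 1 dpa call was lost without any 1 array except 1 dpa replicate 2 (-2.65 to -1.66), and also with quantile normalization (-2.84). The annexin gene anxa1c fell by 1.95 ± 0.22 at 1 dpa and 2.51 ± 0.22 at 3 dpa. At 2 dpa the aerolysin-like gene aep1 fell by 2.18 ± 0.16. Adult rises included those of the plectin gene pleca (1.92 ± 0.55 at 1 dpa and 3.14 ± 0.55 at 5 dpa), the basement membrane genes frem3 (3.55 ± 0.56 at 3 dpa) and lama5 (2.43 ± 0.51 and 3.19 ± 0.51 at 3 and 5 dpa), and the desmoglein gene dsg2.1 at 1 dpa (2.06 ± 0.77). The dsg2.1 call was lost without any 1 array except 1 dpa replicate b (1.21 to 2.75), and that of pleca at 1 dpa without unamputated replicate 3 (1.43) or 1 dpa replicate e (1.75). The retinol-binding protein gene rbp4 fell by 2.72 ± 0.54 and 2.71 ± 0.54 at 1 and 3 dpa, and the protease inhibitor gene spint1b by 2.68 ± 0.67 and 2.41 ± 0.67 at 3 and 5 dpa. At 5 dpa the spint1b call was lost without unamputated replicate 1 (-2.26) or 2 (-2.22) or 5 dpa replicate a (-2.47) or c (-2.30).

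Many members lie near each other in the genome. By the order of protein-coding genes in the RefSeq annotation of assembly GRCz12tu, 27 member genes formed 8 groups in which neighbours were at most 10 places apart. In the group of krt93, krt94, krt15, krt99 and jupa, krt15 rose while krt94 fell in larvae at 2 dpa (1.64 and -2.75), and krt93 rose while krt99 fell in adults at 1 dpa (1.87 and -2.88). In the group of krt5, krt8 and krt18a.1 all 3 had positive adult changes at each day, 2 of them called, and krt5 stayed between 0.46 and 0.52. In the group of cldnj, cldne, cldnf and cldna, only cldnf was called.

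Probe sets of 1 gene did not always read alike. Of 15 member genes with more than 1 probe set, all probe sets of a gene had changes of 1 sign in 14, 9 and 12 genes in larvae at 1, 2 and 3 dpa, and in 7, 8 and 6 genes in adults at 1, 3 and 5 dpa. No gene was called in opposite directions by its own probe sets. Calls on all probe sets of a gene were made for 3 genes in larvae at 2 dpa and for 3 at 3 dpa, and calls on only some for 4 and 2. In adults the corresponding numbers were 1 gene on all and 3 on some at 1 dpa, 0 and 1 at 3 dpa, and 0 and 2 at 5 dpa.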

How the data were processed

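Whole-fin RNA of 24 zebrafish samples was measured on Affymetrix arrays. The authors deposited a linear ratio per probe set and array, made with GCRMA per the submitters' processing notes, whose version and the reference of the ratio are not given in the sources used here. Probe sets were named from the platform annotation, with 10795 of 15502 tested probe sets carrying 1 symbol, 135 several and 4572 none. The deposited ratios were put on the log2 scale without further normalization and fitted with limma 3.58.1 in R 4.3.3, with 1 mean per group and empirical Bayes variances. Fits used the 12 arrays of an age, or all 24 for comparisons between ages. P-values were adjusted by the Benjamini-Hochberg method over all tested probe sets, and a call needed at least 2-fold change besides an adjusted p under 0.05. The script was tested on simulated data. Array data hold no read depth, and 3 arrays per group limit the precision.

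Members, gene lists and tests were chosen with earlier results of these data known. Values on every array are given for the 2 called members with the largest rise and the 2 with the largest fall in each comparison with unamputated fin, and for krt15, evplb, tp63, epcam and cdh1 whatever their call. In the other comparisons the 3 largest called differences in each direction are named. Further members are named by role. The reported fits used no pairing of arrays. Same-letter deviations of adult 3 and 5 dpa replicates from the group means correlated in all 3 pairs (r of 0.156 to 0.433). In larvae 6 of 18 pairs with the same number exceeded 0.1 (-0.035 to 0.197). Arrays with different letters or numbers were not correlated for comparison, so whether the labels pair arrays was not tested. A replicate block was run as an alternative for the larval comparisons and for adult 5 against 3 dpa. Alternatives were other scalings, a pseudocount, a low value filter, no minimum fold, other fits and leaving out each array.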

Additional observations from a re-analysis of the deposited data

Results flagged for a closer look

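These members changed differently in adult and larval fin by the interaction term of the limma fit to 24 arrays, adult change minus larval change with its standard error. At 1 dpa the difference was 2.93 ± 0.31 for krt18a.1, 2.29 ± 0.78 for dspa probe set a and 1.99 ± 0.54 for krt8. It was -3.64 ± 0.75 for krt1-19e probe set a, -3.11 ± 0.39 for krt15 and -2.63 ± 0.45 for cldn3c. At 3 dpa it was 3.38 ± 0.35 for krt94, 3.03 ± 0.31 for krt18a.1 and 2.58 ± 0.54 for krt8. It was -3.2 ± 0.55 for cldnf, -2.68 ± 0.42 for cldn11a and -1.80 ± 0.41 for cldn23.1. The 1 dpa call of dspa was lost in some leave-outs, as given above. Probe set b of krt1-19e gave a 1 dpa difference of -0.24, not called. Vehicle exposure, kit and RNA input differed between the ages, and their part was not tested. At 1 dpa only the adult change also spans the difference in array titles given above, whose part was not tested either.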

How the results depend on the processing

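Of 187 recomputed counts of called members, 156 stayed within 1.5 times the reported count and 31 did not. Of 1237 recomputed values of named members, 1128 kept direction and side of the threshold, 67 lost the call, 9 gained it and 33 changed sign. With no minimum fold, called members numbered 16, 32 and 32 in larvae at 1, 2 and 3 dpa, 31, 36 and 25 in adults at 1, 3 and 5 dpa, 26 from larval 1 to 2 dpa, 1 from adult 1 to 3 dpa and 45 between unamputated ages. A pseudocount of 0.25, which shrinks changes of low ratios, left 6 at larval 2 dpa, 10 and 8 at adult 1 and 3 dpa, 6 from larval 1 to 2 dpa, and 11 and 13 of the adult minus larval differences at 1 and 3 dpa. Quantile normalization gave 10 at adult 1 dpa.

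Leaving out 1 array at a time gave 5 to 8 called members at larval 1 dpa, 12 to 16 at 2 dpa and 16 to 20 at 3 dpa. For adults it gave 8 to 17 at 1 dpa, 12 to 16 at 3 dpa and 3 to 7 at 5 dpa. Successive days gave 9 to 13 and 0 to 1 in larvae, and 0 to 1 and 0 to 0 in adults. The differences between ages gave 11 to 17 at 1 dpa and 20 to 29 at 3 dpa, and unamputated fins 27 to 30. With the replicate block, counts were 9, 20 and 17 at larval 1, 2 and 3 dpa, 12 and 0 for the larval steps and 0 for adult 3 to 5 dpa. Of 34 named values, called or not, 33 kept direction and side of the threshold and 1 lost its call. No paired analysis was possible in the other comparisons because adult groups share at most 1 replicate label and a number shared across ages names different animals.

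Changes of sign came mostly from uncalled values. The other probe set gave, for epcam a, 0.15 and 0.064 at larval 2 and 3 dpa and 0.24 and 0.23 at adult 1 and 5 dpa, and for epcam b -0.18, -0.079, -0.36 and -0.43. For tp63 a it gave 1.04, 0.40 and 0.79 at adult 1, 3 and 5 dpa, and for tp63 b -0.0088, -0.42 and -0.58. For krt1-19e a it gave 1.14 and 0.93 at adult 1 and 3 dpa, for krt1-19e b -0.50 and for krt1-19d b -0.16 at 5 dpa. Centred arrays gave 0.023 for cdh1 and 0.14 for tp63 a at adult 1 dpa, 0.11 for epcam b at 3 dpa and 0.11 for krt15 at 5 dpa. Quantile normalization gave krt15 0.22, 0.25 and 0.54 at adult 1, 3 and 5 dpa, and epcam b -0.024 at larval 3 dpa. Leaving out 1 array moved epcam a from -0.14 to 0.0022 at larval 3 dpa (highest without replicate 3), and in adults tp63 a from -0.068 to 0.044 at 1 dpa (above zero without replicate d), tp63 b from -0.092 to 0.96 at 3 dpa (below zero without unamputated replicate 3), epcam b from -0.15 to 0.18 at 3 dpa (above zero without unamputated replicate 2, 0.0091, or replicate b) and krt15 from -0.14 to 0.038 at 5 dpa (above zero without replicate b or c, the latter 0.023). The cause was not tested.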

Other observations

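Single adult arrays stood far from their groups in several members. In unamputated fin, replicate 3 had the lowest ratio for krt8 (0.281), krt1-19e probe set b (0.0319), krt1-19d probe set b (13.8), perp probe set a (0.773), dsc2l probe set a (0.217), dspa probe set a (0.499) and tp63 probe set b (0.715). Each adult group held 1 high array for cldn3d, at 6.16 in unamputated fin, 12.6 at 1 dpa, 23.7 at 3 dpa and 6.62 at 5 dpa. For dspa probe set a, 1 dpa replicate d reached 8.69 and 3 dpa replicate b reached 5.07. On perp probe set a the same arrays read 48.0 and 103.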
